A study of Mus musculus with 32 samples.

Results

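Expression of 10 genes tied to the Oct-1 pathway was followed in irradiated mouse fibroblasts: the POU factors Pou2f2, Pou2f3, Pou3f1 and Pou6f1, the subunits Snapc1 to Snapc5 of the snRNA activating complex, and the cofactor Hcfc1. Members were chosen by name, with earlier results of these data known. Every probe set annotated to 1 of the 10 genes and to no other gene was taken. All 10 genes had a probe set, 22 probe sets in all, 16 on the array type called array A here and 6 on array B, of 18162 genes and 45137 probe sets other than controls. RNA came from early-passage primary mouse embryonic fibroblasts, and 16 extracts were each hybridised to both Affymetrix array types, which gives 32 samples. The groups were Oct-1 mutant irradiated, Oct-1 mutant unirradiated, wild type irradiated and wild type unirradiated, with 4 extracts in each. The labels do not give the mutant allele, the radiation dose, the time after exposure or the animals behind each culture. The annotation named no probe set for Pou2f1, the gene of Oct-1, so the mutated gene was not analysed here.

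Oct-1 is a widely expressed POU domain protein that binds the octamer sequence through a pair of linked DNA-binding domains. At snRNA genes it helps the snRNA activating complex onto the neighbouring proximal sequence element, from which both RNA polymerase II and RNA polymerase III can be recruited. HCF-1, the product of Hcfc1, is a chromatin cofactor first known for bridging Oct-1 and a herpesvirus activator, and the other POU factors bind octamer-like sequences mostly in restricted cell types.

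Of the 10 genes, 6 had at least 1 probe set above background on all 16 arrays: Pou2f3, Pou6f1, Snapc1, Snapc2, Snapc3 and Hcfc1. The background mark was the 90th percentile of the means of odorant, pheromone and taste receptor probe sets, which fibroblasts are not known to use. On the log2 scale it stood at 3.79 for array A (71 receptor probe sets) and at 4.54 for array B (15 receptor probe sets). Among all probe set means it lay at the 29.4th percentile of array A and the 67.6th of array B. A lower rank therefore sufficed on array A, where most probe sets passed. The highest receptor mean was 7.61 on array A and 6.33 on array B, so a value above the mark is weak evidence of expression. Of the 22 member probe sets, 12 were above it on all 16 arrays, 4 on some arrays and 6 on none. A probe set's log2 value depends on its own probes, so percentiles among probe sets and distances from the mark are only a rough guide to level.

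**Figure D1:**
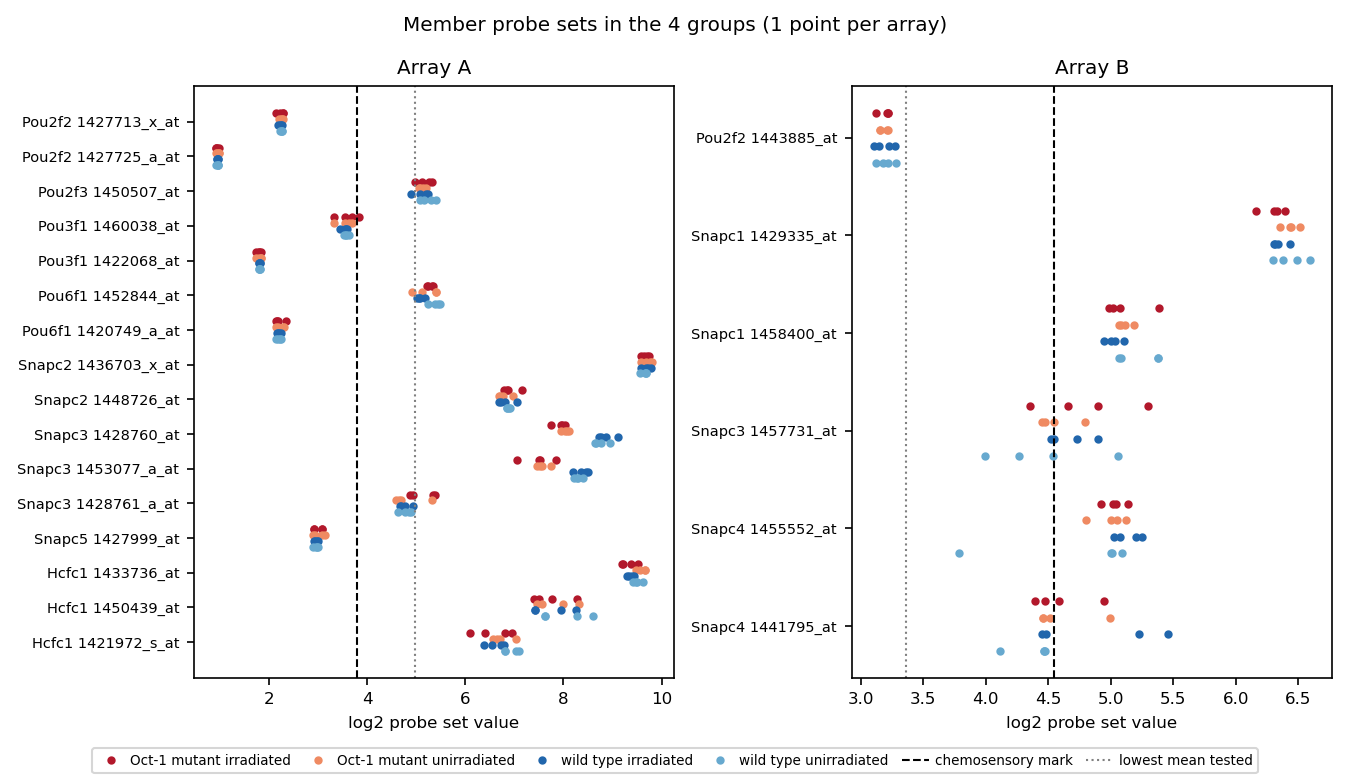
Log2 values of the 22 member probe sets on array A (left) and array B (right), 1 point per array, coloured by group from Oct-1 mutant irradiated at the top of each row to wild type unirradiated at the bottom. The dashed line is the background mark from chemosensory receptors, 3.79 (array A) and 4.54 (array B). The dotted line is the lowest mean tested, 4.97 (array A) and 3.36 (array B).

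All 17 fibroblast markers were above the mark on every array, with a median percentile of 98.2 among probe sets of their array type. The mark was passed on every array by 2 of 9 lymphoid, 4 of 8 macrophage, 6 of 9 epithelial, 5 of 7 neural and 1 of 6 germ and stem cell markers. Irradiation was visible in both genotypes, for the p53 targets Cdkn1a and Mdm2 and the mitotic kinase Plk1. In the mutant they differed by 1.23, 1.60 and -1.86 on the log2 scale, and in wild type by 1.39, 1.74 and -1.57, each with a limma adjusted p below 0.05. Replicates 1 and 2 have title numbers from one run and replicates 3 and 4 from another, and arrays deviated from their group means together within a run. The labels do not say what these number runs stand for.

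Pou2f2 and Pou3f1 lay at or under background, while Pou2f3 and Pou6f1 each had 1 probe set above it on all arrays. Pou2f2, the lymphoid octamer factor best known from B cells, was below the mark on all 16 arrays with each of its 3 probe sets. On array A, 1427725_a_at had group means of 0.94, 0.96, 0.95 and 0.95 and 1427713_x_at of 2.23, 2.25, 2.23 and 2.25, for mutant irradiated, mutant unirradiated, wild type irradiated and wild type unirradiated. On array B, 1443885_at had 3.19, 3.18, 3.19 and 3.20 in the same order. These means differ by at most a few hundredths, which is within the spread of replicates (SD over replicates 0.025, 0.038 and 0.059).

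Pou3f1, a factor of Schwann cells and early neural tissue, was below the mark on 15 of 16 arrays with 1460038_at and on 16 of 16 with 1422068_at. The highest array of 1460038_at was mutant irradiated replicate 3, at 3.84, and the 4 group means were 3.60, 3.55, 3.54 and 3.58. The second probe set of the gene lay at 1.80 on average. Neither probe set passed the filter on low values, and with no filter neither was called in any comparison.

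Pou2f3, the class II POU factor of keratinocytes and tuft cells, was above the mark on all 16 arrays but close to the lowest mean that was tested. Probe set 1450507_at averaged 5.17 ± 0.15 in mutant irradiated, 5.12 ± 0.064 in mutant unirradiated, 5.11 ± 0.16 in wild type irradiated and 5.24 ± 0.14 in wild type unirradiated fibroblasts (SD, n = 4 each). The 4 groups overlap, and none of the 7 comparisons was called. The mutant minus wild type difference, averaged over irradiation, was -0.03 (95% interval -0.18 to 0.12). Its mean stood at the 41.6th percentile of array A, so the value is that of a weak signal.

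Pou6f1, a POU factor studied mainly in the nervous system, gave 1 probe set above the mark on all 16 arrays and 1 below it on all 16. On 1452844_at the mutant irradiated arrays read 5.22, 5.24, 5.34 and 5.33, and the mutant unirradiated arrays 4.91, 5.12, 5.40 and 5.41. The wild type irradiated arrays read 5.05, 5.18, 5.02 and 5.08, and the wild type unirradiated arrays 5.25, 5.44, 5.48 and 5.39. In wild type the irradiated arrays all lay below the unirradiated ones, while in the mutant the groups overlapped. The difference in wild type was -0.31 (SE 0.11, unadjusted p = 0.0107 in limma), which did not pass after adjustment over all probe sets (adjusted p = 0.141). The interaction, irradiation effect in the mutant minus that in wild type, was 0.38 (SE 0.15, unadjusted p = 0.0227, adjusted p = 1 in limma). The other probe set, 1420749_a_at, lay between 2.14 and 2.36 on all arrays.

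Among the subunits of the snRNA activating complex, Snapc3 was lower in Oct-1 mutant than in wild type fibroblasts, both with and without irradiation, and no other subunit was called in any comparison. Snapc3 encodes the zinc-binding subunit that, with Snapc1 and part of Snapc4, makes up the core able to recognise the proximal sequence element. Its promoter window in RefSeq (GRCm38.p6, chr4:83417474-83417773, plus strand, 250 bases before to 50 after the start) is shown because Snapc3 is the member that differed between the genotypes. Capitals mark matches to ACTACANNTCCC, searched on both strands after the sequence had been read.

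Snapc3 promoter: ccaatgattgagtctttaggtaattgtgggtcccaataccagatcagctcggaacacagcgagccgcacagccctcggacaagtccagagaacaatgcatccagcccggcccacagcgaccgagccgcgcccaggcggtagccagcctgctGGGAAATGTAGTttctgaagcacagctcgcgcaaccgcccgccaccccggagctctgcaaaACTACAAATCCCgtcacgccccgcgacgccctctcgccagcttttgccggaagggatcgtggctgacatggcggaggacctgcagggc

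The window holds no exact octamer ATGCAAAT on either strand. None of the 8 members with a window does, against 1.74% of all 32851 windows, so 0 of 8 says little. Pou2f3 and Pou3f1 have no window in the table used. The ACTACA motif, which in mammals is bound by the zinc finger protein ZNF143 and by THAP11, a partner of HCF-1, occurs at both marked places, beginning 99 bases before the start on the minus strand and 38 before it on the plus strand. It occurs in 1.81% of all windows and at least 2 times in 0.244% of them, and in no other member's window. A match is a description of the sequence only.

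The signal that carries the Snapc3 result came from 2 of its 4 probe sets. On 1428760_at the mutant irradiated arrays read 7.98, 7.75, 8.04 and 7.94, against 8.77, 8.72, 9.12 and 8.88 in wild type irradiated arrays. The mutant unirradiated arrays read 8.12, 7.96, 8.06 and 8.03, against 8.63, 8.77, 8.94 and 8.66 in wild type unirradiated arrays. Every one of the 8 mutant arrays lay below every one of the 8 wild type arrays. The log2 difference was -0.94 in irradiated cells (SE 0.10, limma adjusted p = 2.61e-05) and -0.71 in unirradiated cells (SE 0.10, limma adjusted p = 0.000442). Averaged over irradiation it was -0.83 (95% interval -0.98 to -0.68, limma adjusted p = 9.57e-07), which puts the mutant at 56.4% of wild type.

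The second probe set, 1453077_a_at, gave values of the same size. Mutant irradiated arrays read 7.84, 7.52, 7.04 and 7.51, against 8.50, 8.46, 8.36 and 8.19 in wild type irradiated arrays. Mutant unirradiated arrays read 7.45, 7.74, 7.51 and 7.56, against 8.40, 8.27, 8.30 and 8.21 in wild type unirradiated arrays. Again no mutant array reached the lowest wild type array. The difference was -0.90 in irradiated cells (SE 0.13, limma adjusted p = 0.000686), -0.73 in unirradiated cells (SE 0.13, limma adjusted p = 0.00446) and -0.81 on average (95% interval -1.01 to -0.61, limma adjusted p = 2.67e-05), or 56.9% of wild type. Both probe sets remained called under each of the 24 alternative settings run, including each number run alone.

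These 2 were the only member probe sets called for genotype among the 14 that were tested, called meaning an adjusted p under 0.05 over all probe sets of the array type. That count was 2 of 14 in unirradiated cells, where 2.16% of all 27083 tested probe sets were called, and 2 of 14 in irradiated cells, where 2.09% were. On average over irradiation it was 2 of 14, with 6.25% of all tested probe sets called. The members' median difference on average was -0.02, beside 0.002 for all tested probe sets of array A and 0.022 for those of array B. Both called probe sets interrogate the same gene, so they are not separate evidence for the set of 10 genes.

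The lower Snapc3 values in the mutant did not depend on irradiation in a way the fit could detect. The irradiation effect in the mutant minus that in wild type was -0.24 on 1428760_at (95% interval -0.53 to 0.06) and -0.17 on 1453077_a_at (95% interval -0.57 to 0.22). Averaged over genotype, the irradiated minus unirradiated difference was 0.003 on the first probe set (95% interval -0.15 to 0.15) and -0.003 on the second (95% interval -0.20 to 0.20).

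The remaining Snapc3 probe sets were not lower in the mutant. On 1428761_a_at the mutant irradiated arrays read 4.94, 5.38, 5.35 and 4.87 and the mutant unirradiated arrays 4.64, 4.59, 4.68 and 5.32, against 4.69, 4.76, 4.94 and 4.67 in wild type irradiated and 4.85, 4.63, 4.89 and 4.77 in wild type unirradiated arrays. The groups overlap, and 2 mutant irradiated arrays and 1 mutant unirradiated array stand above all wild type arrays. Its mean of 4.87 lay just under the lowest mean tested in the main analysis, 4.97. Tested with no filter, it was higher in the mutant by 0.37 in irradiated cells (SE 0.16, unadjusted p = 0.0322, adjusted p = 0.414 in limma) and by 0.20 on average (adjusted p = 0.449 in limma), opposite in sign to the called pair and not called. On array B, 1457731_at was above the mark on 8 of 16 arrays, and its average mutant minus wild type difference was 0.12 (95% interval -0.21 to 0.44, limma adjusted p = 0.687). The transcripts that each probe set measures were not looked up here.

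**Figure D2:**
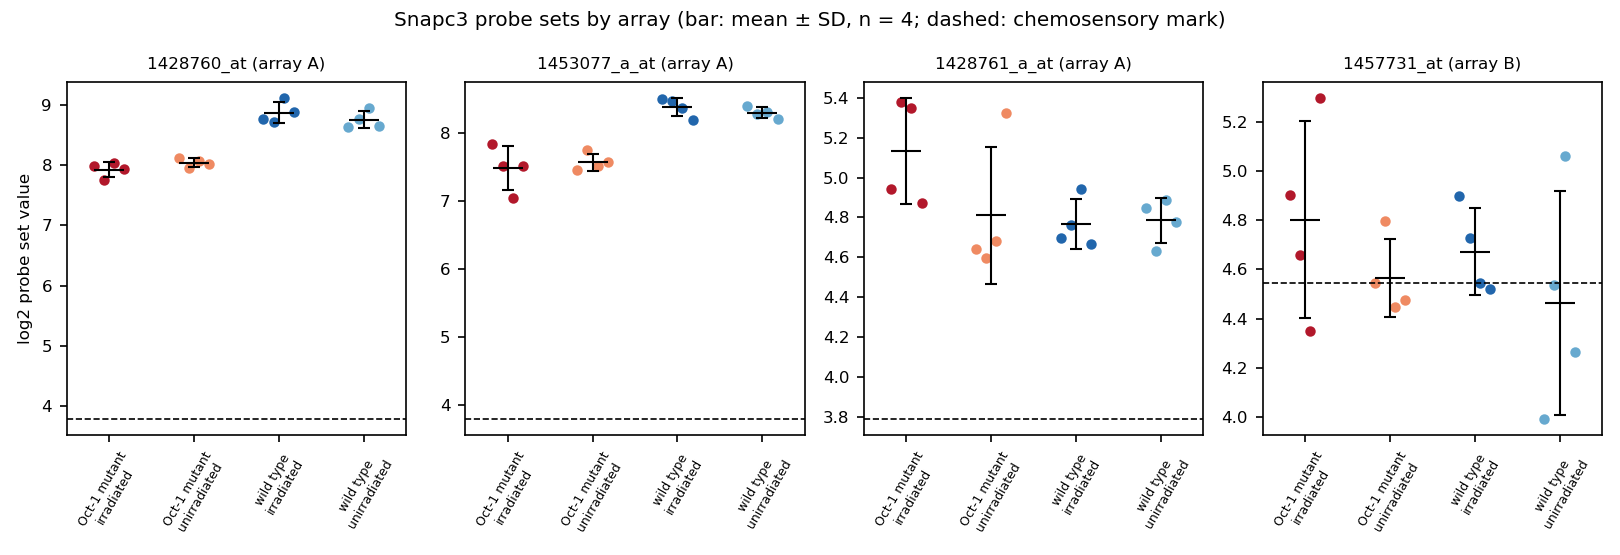
Log2 values of the 4 Snapc3 probe sets, 1 point per array in replicate order within each group, with the group mean and SD (n = 4) and the background mark as a dashed line. On 1428760_at and 1453077_a_at the mutant groups lie below both wild type groups, while 1428761_a_at and 1457731_at overlap.

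Beside Snapc3, 4 fibroblast markers, 1 neural marker and 1 epithelial marker were called for genotype on average. The marker lists too were chosen with earlier results of these data known. The mean log2 level of the fibroblast list was 11.10 to 11.49 in mutant irradiated and 11.28 to 11.55 in mutant unirradiated arrays, against 10.79 to 10.96 in wild type irradiated and 10.89 to 11.10 in wild type unirradiated arrays. On average over irradiation 4 of 17 fibroblast markers rose in the mutant and 0 fell, where 6.25% of all 27083 tested probe sets were called, 1021 of them higher, led by the matrix proteoglycans Dcn (2.01, limma adjusted p = 2.67e-05) and Lum (1.46, limma adjusted p = 0.00505). With the replicate number as a block 12 of 17 rose, where 13.9% of all tested probe sets were called, 1954 of them higher. Averaged over genotype, 3 of 17 fell after irradiation and 0 rose, beside 7.51% called over all tested probe sets. These were Twist1 at -0.49, Twist2 at -0.36 and Pdgfrb at -0.56 (limma adjusted p = 0.000921, 0.00277 and 0.0107). With the block 4 of 17 fell after irradiation, beside 14.9% called over all. The neural list had mean levels of 5.37 to 5.65 in mutant irradiated and 5.52 to 5.61 in mutant unirradiated arrays, against 5.66 to 5.72 in wild type irradiated and 5.66 to 5.75 in wild type unirradiated arrays. Of its 4 tested markers Map2, a neuronal microtubule protein gene, fell by 0.80 in the mutant (limma adjusted p = 0.017) and 0 rose. Of 4 tested epithelial markers the keratin gene Krt18 rose by 0.46 (limma adjusted p = 0.0165) and 0 fell. Both of these single calls stand beside the 6.25% called over all tested probe sets. The epithelial list had mean levels of 4.62 to 4.83 in mutant irradiated and 4.73 to 4.89 in mutant unirradiated arrays. In wild type they were 4.61 to 4.70 in irradiated and 4.57 to 4.76 in unirradiated arrays, so the genotypes overlapped. Of 3 tested macrophage markers 0 were called for genotype on average. With the replicate block 1 of these 3 rose in the mutant, beside 13.9% called over all. The part of these markers in the Snapc3 difference was not tested, and in bulk RNA fewer cells of a type and less RNA per cell cannot be told apart.

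The genes beside Snapc3 on chromosome 4 were examined after its values had been seen. Among the 10 nearest genes on each side that had a tested probe set, 9 of 41 probe sets, from 7 of 20 genes, were called between mutant and wild type on average, with differences from -0.60 to 0.82 over all 41. Over all tested probe sets 6.25% were called in that comparison. The next gene on one side, Ttc39b, had 4 probe sets at -0.52, -0.49, -0.27 and -0.60, of which the first was called (limma adjusted p = 0.000917). The next on the other side, Psip1, a chromatin-binding cofactor gene, had -0.41 (limma adjusted p = 0.00614), -0.35 and 0.01. All 3 probe sets of Adamtsl1 were higher in the mutant, by 0.49, 0.54 and 0.82, as was Rps6 by 0.50. Further called neighbours were Frmd3 at 0.47, Kdm4c at 0.22 and Plin2 at -0.38, so called neighbours lay in both directions. No neighbour probe set was as low as the called Snapc3 pair.

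**Figure D3:**
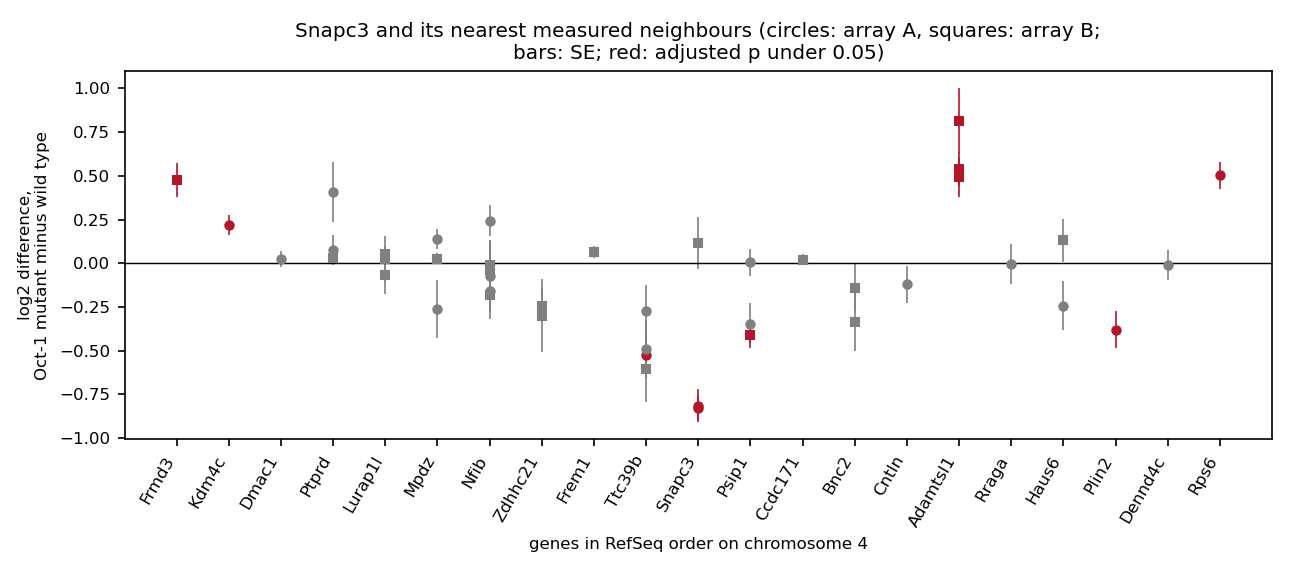
Average log2 difference, Oct-1 mutant minus wild type, for tested probe sets of Snapc3 and its 20 nearest measured neighbours in RefSeq gene order, with SE bars and called probe sets in red. The called Snapc3 probe sets lie at -0.83 and -0.81, below all 41 neighbour probe sets, whose lowest value is -0.60.

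Snapc1, Snapc2 and Snapc4, the other subunits with a tested probe set, were not called. Snapc1, a core subunit that joins Snapc3 and Snapc4, averaged 6.30 ± 0.096 in mutant irradiated, 6.44 ± 0.068 in mutant unirradiated, 6.35 ± 0.062 in wild type irradiated and 6.44 ± 0.13 in wild type unirradiated arrays on 1429335_at (SD, n = 4 each). Its mutant minus wild type difference was -0.03 (95% interval -0.14 to 0.09), and its irradiated minus unirradiated difference -0.12 (95% interval -0.23 to 0.0002, limma adjusted p = 0.484). A second probe set, 1458400_at, reached Snapc1 through an older gene name and was not called in any comparison. Its difference in wild type was -0.20 (unadjusted p = 0.048, adjusted p = 0.69 in limma).

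Snapc2, a subunit that attaches to Snapc4 outside the core, was not called with either probe set. On 1436703_x_at the group means were 9.66 ± 0.072 in mutant irradiated, 9.71 ± 0.10 in mutant unirradiated, 9.69 ± 0.086 in wild type irradiated and 9.64 ± 0.057 in wild type unirradiated arrays (SD, n = 4 each). The average mutant minus wild type difference was 0.02 (95% interval -0.08 to 0.12), the narrowest interval of the 14 probe sets. Its second probe set, 1448726_at, differed by 0.003 (95% interval -0.15 to 0.16).

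Snapc4, the largest subunit, which carries Myb-like repeats and contacts the Oct-1 POU domain, was near the mark of array B with both probe sets. On 1455552_at, 15 of 16 arrays were above it, the exception being wild type unirradiated replicate 1 at 3.78, where the other 3 arrays of the group lay between 5.00 and 5.09. On 1441795_at, 5 of 16 arrays were above it. There the wild type irradiated arrays read 5.22, 5.46, 4.45 and 4.48, against 4.47, 4.46, 4.12 and 4.47 in wild type unirradiated arrays, so the higher values belong to the first number run. The difference in wild type was 0.52 (SE 0.21, unadjusted p = 0.0268, adjusted p = 0.554 in limma). Snapc5, a small accessory subunit, was below the mark on all 16 arrays, at group means of 3.01, 3.01, 2.96 and 2.96 for mutant irradiated, mutant unirradiated, wild type irradiated and wild type unirradiated.

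Hcfc1 was the 1 member called for irradiation on average, with a small difference on 1 of its 3 probe sets. On 1433736_at the mutant irradiated arrays read 9.22, 9.38, 9.51 and 9.20, against 9.48, 9.56, 9.65 and 9.66 in mutant unirradiated arrays. The wild type irradiated arrays read 9.29, 9.39, 9.33 and 9.43, against 9.47, 9.41, 9.49 and 9.62 in wild type unirradiated arrays. In both genotypes the irradiated arrays were mostly lower and the groups overlapped by 1 array. Averaged over genotype Hcfc1 fell by 0.20 (95% interval -0.32 to -0.08, limma adjusted p = 0.0264), to 87.1% of the unirradiated level. This was the 1 member probe set of 14 (7.14%) called for irradiation on average. That share is near the 7.51% called over all tested probe sets, so the count does not set the members apart.

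That call was close to its threshold. It was lost within each number run alone, at -0.16 (limma adjusted p = 0.178) in the first and -0.24 (limma adjusted p = 0.101) in the second, and without any of 5 of the 16 extracts, with limma adjusted p-values of up to 0.0567. The 5 were mutant irradiated replicates 1 and 4, mutant unirradiated replicate 3, wild type irradiated replicate 1 and wild type unirradiated replicate 4.

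Within each genotype no member was called. In the mutant the count was 0 of 14, with 2.67% of all tested probe sets called, and Hcfc1 1433736_at had the 1 unadjusted p under 0.05, at -0.26 (limma adjusted p = 0.0723, or 0.0255 with the replicate number as a block). In wild type the count was 0 of 14, with 2.31% of all tested probe sets called, and 3 probe sets had an unadjusted p under 0.05 in limma, of Pou6f1, Snapc1 and Snapc4 as given above. The interaction was called for 0 of 14 members and 0 (0%) of all 27083 tested probe sets in limma, with 1 member and 394 probe sets at an unadjusted p under 0.05. For Hcfc1 1433736_at it was -0.13 (95% interval -0.36 to 0.11).

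Averaged over genotype, the other Hcfc1 probe sets were lower after irradiation by similar amounts with wider errors. Over the 16 extracts they did not follow 1433736_at (Pearson r = 0.04 for 1421972_s_at and -0.20 for 1450439_at), though they followed each other (r = 0.71). On 1421972_s_at the mutant irradiated arrays read 6.96, 6.81, 6.09 and 6.41, against 7.04, 6.65, 6.57 and 6.70 in mutant unirradiated arrays. The wild type irradiated arrays read 6.54, 6.78, 6.39 and 6.73, against 7.10, 7.03, 6.82 and 6.81 in wild type unirradiated arrays. The wild type groups did not overlap and the mutant groups did. The average difference was -0.25 (SE 0.12, limma adjusted p = 0.194), called with the replicate block (adjusted p = 0.0446). On 1450439_at it was -0.19 (95% interval -0.60 to 0.22), in a fit that leaves the spread between number runs in the interval. In the first run its irradiated and unirradiated means were 8.02 and 8.16 in the mutant, and 8.10 and 8.44 in wild type. For the second run they were 7.45 and 7.51 in the mutant, and 7.41 and 7.62 in wild type. That probe set divided by number run instead, with values of 7.76 to 8.61 in replicates 1 and 2 and of 7.40 to 7.62 in replicates 3 and 4 of all groups.

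**Figure D4:**
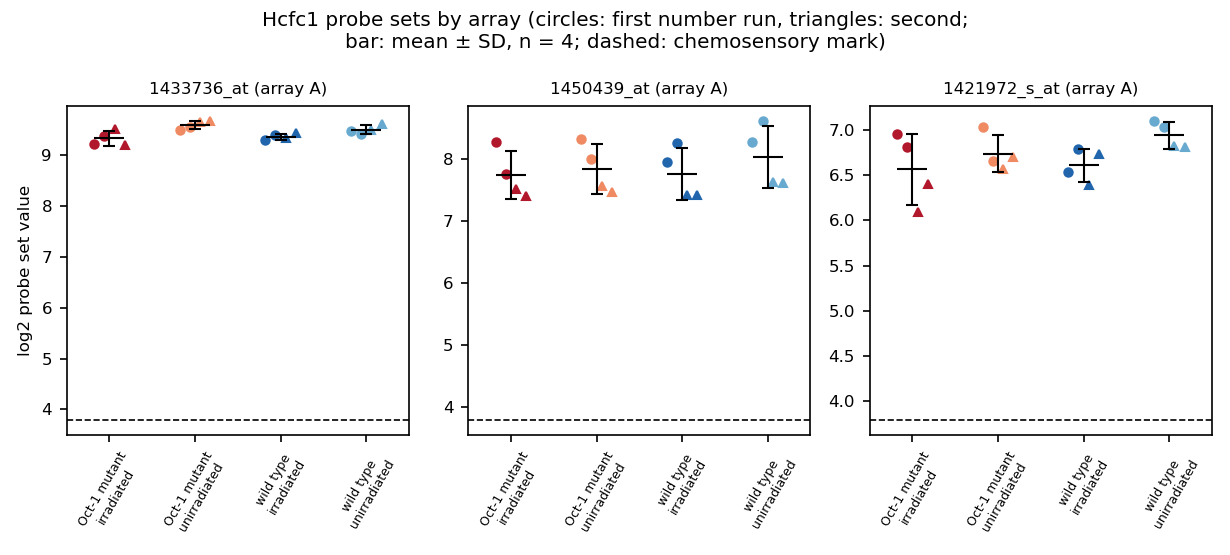
Log2 values of the 3 Hcfc1 probe sets, 1 point per array, circles for replicates 1 and 2 and triangles for replicates 3 and 4, with the group mean and SD (n = 4). On 1433736_at the irradiated groups sit at 9.33 and 9.36, against 9.59 and 9.50 in the unirradiated groups, and on 1450439_at all circles lie above all triangles.

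Hcfc1 did not differ between genotypes on any probe set by an amount the fit could detect. The average mutant minus wild type difference on 1433736_at was 0.03 (95% interval -0.09 to 0.15), and those on 1421972_s_at and 1450439_at were -0.12 and -0.11, with adjusted p-values of 0.601 and 0.8 in limma.

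**Figure D5:**
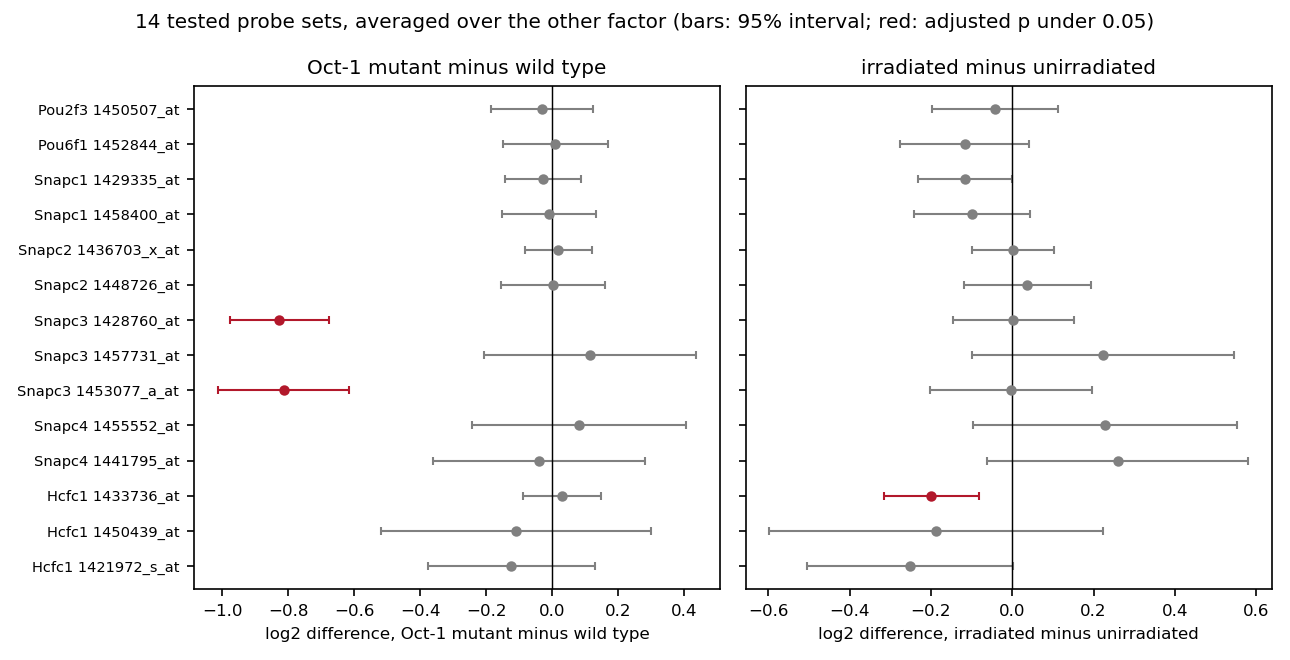
Log2 differences of the 14 tested member probe sets, Oct-1 mutant minus wild type (left) and irradiated minus unirradiated (right), each averaged over the other factor, with 95% intervals and called probe sets in red. Snapc3 1428760_at at -0.83 and 1453077_a_at at -0.81 are called for genotype and Hcfc1 1433736_at at -0.20 for irradiation, and the other values lie between -0.25 and 0.26.

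Genes that work with the members were read from lists of named components, 1 leading probe set per gene. These lists were chosen with earlier results of these data known, so their counts are a description and not a test. Of 17 other factors at snRNA promoters, 1 fell and 0 rose in the mutant on average: the elongation factor gene Ell2, by 0.43 on the log2 scale (SE 0.10, limma adjusted p = 0.00751). The 1 of 17 stands beside 6.25% called over all tested probe sets. With the replicate block 3 fell and 2 rose, beside 13.9% called over all. The list's median difference was -0.12. After irradiation 2 of 17 fell, Ice1 of the little elongation complex by 0.44 (limma adjusted p = 0.00579) and Coil, the Cajal body protein coilin, by 0.26 (limma adjusted p = 0.00776), and 0 rose. Over all tested probe sets 7.51% were called for irradiation. With the block 4 of 17 fell and 1 rose, beside 14.9% called over all.

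The 14 subunits of the Integrator complex, which processes snRNA 3' ends, included 0 called for genotype, at a median of -0.11, and 3 called for irradiation, beside 7.51% over all tested probe sets. After irradiation Ints13 rose by 0.30 (limma adjusted p = 0.0147), while Ints5 fell by 0.36 (limma adjusted p = 0.00588) and Ints12 fell by 0.43 (limma adjusted p = 0.0377). Of 11 RNA polymerase III subunits, 3 fell in the mutant and 0 rose: Polr3e by 0.34, Polr3a by 0.39 and Polr3g by 0.36 (limma adjusted p = 0.0179, 0.0205 and 0.04). Over all tested probe sets 6.25% were called in that comparison, 673 of them lower. None of the 11 was called for irradiation, and with the replicate block 2 rose, beside 14.9% called over all.

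Among 13 partners of HCF-1, 3 rose in the mutant and 0 fell: the transcription factor genes Creb3 by 0.34 and Crebzf by 0.53, and Hcfc1r1, the regulator of HCF-1 localisation, by 0.33 (limma adjusted p = 0.000691, 0.00276 and 0.0184), beside 6.25% called over all tested probe sets. After irradiation E2f1 rose by 0.33, while Thap11 fell by 0.36, the glycosyltransferase gene Ogt, whose product cleaves HCF-1, fell by 0.40 and Crebzf fell by 0.34 (limma adjusted p = 0.0338, 0.00337, 0.0222 and 0.0395), beside 7.51% called over all. With the replicate block 4 fell and 1 rose after irradiation, beside 14.9% called over all. The list's median was -0.01 for genotype and -0.08 for irradiation. For irradiation, all tested probe sets had medians of 0.006 on array A and 0.015 on array B.

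Of 7 coactivators tied to Oct-1 at histone promoters or elsewhere, Ldhb, a lactate dehydrogenase subunit gene, rose in the mutant by 0.52 (limma adjusted p = 0.000483) and rose after irradiation by 1.04 (limma adjusted p = 2.88e-07). Nme1, a nucleoside diphosphate kinase gene, fell by 0.19 in the mutant (limma adjusted p = 0.00452) and rose by 0.13 after irradiation (limma adjusted p = 0.038). Beside these 2 of 7 called in each comparison, 6.25% of all tested probe sets were called for genotype and 7.51% for irradiation. With the replicate block 4 of the 7 rose after irradiation, beside 14.9% called over all, 2351 of them higher. Of 7 other POU genes or their coactivator with a probe set, Pou3f3 and Pou4f1 were above the mark on all 16 arrays and 5 on none, and 0 of the 3 tested were called for genotype or irradiation.

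The genes whose pattern over the 16 arrays was most like that of a member were read from Pearson correlations on the same array type, as a description. For Snapc3 1428760_at they were Exosc1 and Otud4 (r = 0.947 and 0.946), over arrays that fall into a mutant and a wild type cluster. For Hcfc1 1433736_at they were Chd4 and Scd2 (r = 0.926 and 0.898). For Snapc4 1455552_at they were Gm10575 and 4930578G10Rik (r = 0.927 and 0.914), a likeness that rests on a probe set with 1 low array. The nearest to Pou2f3 were Rraga and Kcmf1 (r = 0.879 and 0.867), and to Pou6f1 Tbl1x and Aldh18a1 (r = 0.789 and 0.759). Those to Snapc1 were Med15 and Malt1 (r = 0.791 and 0.742), and to Snapc2 Nup43 and Nr2f6 (r = 0.776 and 0.729). Arrays of 1 number run share deviations, which raises likeness between probe sets that follow the run.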

How the data were processed

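The authors deposited 1 log2 value per probe set and array. How they summarised and scaled the probes was not given in the labels, and the log base was read from the range of values. Symbols were updated through gene identifiers with RefSeq. Per array type, limma 3.58.1 (R 4.3.3) fitted 4 group means with an intensity trend to the probe sets whose mean reached the 40th percentile, which were 13576 for array A and 13507 for array B. P-values were adjusted by Benjamini-Hochberg within array type and comparison. The fit was first tested on simulated data in which arrays varied independently, so that test did not cover arrays that deviate together. The 10 genes and all lists were chosen with earlier results of these data known. Named genes were all member probe sets, called genes of each list (up to 4), the 2 nearest patterns and the called neighbours of Snapc3. The labels do not give the origin of replicates, so p-values measure only the spread between these samples, which may be technical; 4 arrays per group limit precision. Same-numbered arrays deviated together (median correlation 0.577 on array A and 0.442 on array B, all above 0.1). A fit with the number as a block was therefore run as an alternative. It is given where it changes a member call, or a list's count averaged over genotype or over irradiation. All other values come from the fit without a block. Arrays of other numbers in the same run deviated together nearly as much (0.556 and 0.403). An array A label without a replicate number was matched by its title number to array B. Figures used Python 3.11.15 and matplotlib 3.10.9.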

Additional observations from a re-analysis of the deposited data

Results flagged for a closer look

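Of 56 sets of 4 arrays examined for an array standing apart, 3 had one, all of Snapc4 on array B, where chance marks about 1 in 20. On 1455552_at wild type unirradiated replicate 1 read 3.78, and the other 3 arrays of that group read 5.00 to 5.09. Without that extract the irradiated minus unirradiated difference in wild type was 0.11 in place of 0.42, and the mutant minus wild type difference in unirradiated cells was -0.04 in place of 0.27. On 1441795_at mutant unirradiated replicate 1 read 4.99, against 4.46 to 4.51 for the others of its group. On the same probe set wild type unirradiated replicate 3 read 4.12, against 4.46 to 4.47 for the others, and without it the difference in wild type was 0.43 in place of 0.52. None of these differences was called with or without the array.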

How the results depend on the processing

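Each member result was refitted under 24 alternatives, or 23 for the 4 of 14 tested probe sets that did not pass the stricter filter: the replicate or number run as a block, each run alone, no filter, a stricter filter, quantile normalization, no intensity trend, and each of the 16 extracts left out. The 6 Snapc3 genotype calls held in all 24, with average differences of -0.88 to -0.77 on 1428760_at and -0.87 to -0.74 on 1453077_a_at. With the replicate block and with the number run block the count of members called for irradiation was 1 in place of 0 in the mutant and 2 in place of 1 on average, all of Hcfc1, and within the first and within the second number run it was 0 on average. Leaving out 1 extract gave 0 to 1 called in the mutant, 1 being without mutant irradiated replicate 3, and 0 to 1 on average. The counts for the other 5 comparisons did not change, and the cause of the changes was not tested. No call reversed. Over all probe sets the replicate block raised calls from 1694 to 3768 for genotype on average, 2034 to 4040 for irradiation on average, 724 to 1937 for irradiation in the mutant, 625 to 1654 in wild type, 584 to 1739 for genotype in unirradiated and 565 to 1631 in irradiated cells; it changed no member call but those of Hcfc1 above. The number run block gave 3711, 3984, 1927, 1632, 1682 and 1621 calls in the same comparisons. The second number run alone gave 1203 calls for irradiation on average, 357 in the mutant and 355 in wild type. Leaving out wild type unirradiated replicate 2 or replicate 1 gave 375 or 379 calls for genotype in unirradiated cells, and leaving out wild type irradiated replicate 2 gave 1 call for the interaction in place of 0. The 8 member probe sets under the filter were not called in any comparison without it. Signal limits Pou2f2, Pou3f1, Snapc5 and Snapc4, which lie under or near background, and Pou2f3 and Pou6f1, which lie close to the lowest mean tested. In these 6 genes a real difference could go unseen.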
